A study of Mus musculus with 10 samples.

Results

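The smooth muscle contractile genes followed here are 10 genes of the vascular smooth muscle contractile apparatus with its transcriptional coactivator: Acta2, Myh11, Myl9, Mylk, Tagln, Cnn1, Lmod1, Smtn, Synpo2 and Myocd. They were taken by gene symbol from a table of 15341 genes, and all 10 passed the filter on low counts that left 12992 genes for testing. Whole hearts of male mice were sequenced, 5 from S1Pless animals (Sphk1f/-:Sphk2f/-:Mx1Cre+) and 5 from control littermates (Sphk1f/-:Sphk2f/-:Mx1Cre-). Both groups therefore carry a floxed and a null allele of each sphingosine kinase gene, and they differ in the recombinase Mx1-Cre, which an interferon-inducible promoter drives. That promoter is active in blood-forming cells and also in other cell types, and the labels used here do not say which cells recombined the floxed alleles, nor the age or any inducing treatment. Sphingosine 1-phosphate (S1P) is the lipid messenger these kinases make, and the study's title concerns its part in vascular resistance.

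Smooth muscle of coronary arteries and arterioles sets vascular resistance by contracting. Calcium-bound calmodulin switches on myosin light chain kinase, the product of Mylk, which phosphorylates the regulatory light chain encoded by Myl9 so that smooth muscle myosin (Myh11) can pull on smooth muscle alpha-actin (Acta2). S1P receptors on smooth muscle act through RhoA, which restrains the opposing myosin phosphatase. Most of these genes are driven by serum response factor (SRF) together with myocardin, the product of Myocd, at a DNA element called the CArG box. Myocd and Synpo2 are also expressed by heart muscle cells, so in whole heart RNA their reads do not come from vessels alone. Which cells gave the reads of the other contractile genes, Smtn among them, was not tested.

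The CArG boxes found in front of 2 of the genes are shown because they are the element through which myocardin and SRF act. The RefSeq promoter table (GRCm38.p6) held 7 of the 10 genes, namely all but Myh11, Tagln and Myocd. The 250 bases before each listed start were searched for the CArG box, whose pattern reads the same on both strands, with 1 base of its core of 6 A or T bases allowed to differ. Acta2 and Myl9 held 2 boxes each, none of which overlapped, and Cnn1, Smtn, Lmod1, Synpo2 and Mylk held none in this window, which says only that these letters are not there. At least 1 such box was found in 8.59% of all 32851 promoters listed, and at least 2 in 0.67%. The sites are given below 5′ to 3′ on the gene's strand with the box in capitals, and only the first Myl9 site matches the element with no difference.
Acta2 site 1, chr19:34255438-34255467, minus strand: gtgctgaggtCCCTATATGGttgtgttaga
Acta2 site 2, chr19:34255388-34255417, minus strand: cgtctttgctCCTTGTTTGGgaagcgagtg
Myl9 site 1, chr2:156775293-156775322, plus strand: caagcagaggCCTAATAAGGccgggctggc
Myl9 site 2, chr2:156775355-156775384, plus strand: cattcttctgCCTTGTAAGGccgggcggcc

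Library totals were 16354071 to 20832566 counts in S1Pless hearts and 17204491 to 20202283 in controls. Levels are given in CPM, read counts scaled to the library total and by TMM factors. The factors were 1.05 ± 0.0328 in S1Pless hearts and 0.955 ± 0.0478 in controls (SD, n = 5 each), a difference with a two-sided exact permutation p of 0.0159, or 0.0477 after adjustment for 3 measures of the libraries. The lowest factor, 0.884, was that of control replicate 1, and a low factor raises a heart's CPM. Mitochondrial genes took 33.4% of the counts of that heart, against 22.7% to 27.1% in the other hearts. The targeted gene Sphk1 had 8 to 18 reads in S1Pless libraries and 16 to 27 in controls, and Sphk2 had 277 to 389 reads in S1Pless libraries and 278 to 439 in controls. Counts over a whole gene cannot separate the floxed from the null allele, so they check the labels only in part. Of all tested genes 3.4% were called higher and 0.316% lower in S1Pless hearts, where called means a false discovery rate under 0.05 by edgeR's quasi-likelihood F-test over the 12992 genes. Control replicate 4 had the lowest contractile score of all 10 hearts, the score being the mean log2 CPM of the 10 genes. Scores were 5.10 to 5.36 in S1Pless hearts and 5.42 to 5.68 in the other controls, and control replicate 4 was at 5.06. On the same kind of score its pericyte markers were also the lowest of all 10 hearts, at 5.88, against 5.94 to 6.18 in S1Pless hearts and 5.94 to 6.01 in the other controls. So were its 24 other smooth muscle filament and adhesion genes, at 5.4, against 5.5 to 5.75 in the other hearts. The macrophage score of control replicate 4 was the lowest too, at 3.05, against 3.2 to 5.01 in the other hearts. Its endothelial (6.84) and fibroblast (6.28) scores were not the lowest of the controls. Its macrophage and cardiomyocyte marker sums, given further on, were the lowest of the controls, though its cardiomyocyte score of 12.6 was level with other controls. Its summed pericyte (1680 CPM), endothelial (1920 CPM) and fibroblast markers (2470 CPM) were not the lowest of the controls. Results are therefore given with and without that heart.

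None of the 10 contractile genes was called in either direction. Fitted log2 fold changes were below 0 for 9 of the 10 (8 when libraries were scaled by their totals alone), as they were for 52.6% of all tested genes, with a median of -0.21 for the 10 genes and -0.01 for all tested genes. The largest differences were in Tagln, Myl9 and Myh11, at 0.806-fold, 0.81-fold and 0.831-fold, and Mylk stood at 1.00-fold. That order depended on control replicate 1, the highest heart in 7 of the genes: without it Synpo2, at a log2 fold change of -0.325, and Myocd, at -0.261, were the lowest, and Myh11 was at -0.21, Myl9 at -0.18, Tagln at -0.17, Cnn1 at -0.08 and Acta2 at -0.04. In every one of the 10 genes the S1Pless and control hearts overlapped. Fewer smooth muscle cells and less of these RNAs per cell cannot be told apart in whole heart RNA.

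Acta2, the actin of smooth muscle thin filaments, had 72.9, 91.4, 62.3, 53.4 and 80.8 CPM in S1Pless replicates 1 to 5, against 110, 76.8, 79.5, 52.8 and 85.6 CPM in control replicates 1 to 5. Control replicate 1 was the highest heart and control replicate 4 the lowest, so the controls enclosed all S1Pless values. The log2 fold change was -0.17 ± 0.18 (SE, as for all fold changes here; edgeR adjusted p = 0.642), with a 95% interval of 0.683-fold to 1.16-fold. Actc1, the cardiac actin gene with a closely similar coding sequence, averaged 6640 CPM in S1Pless hearts and 7550 CPM in controls, and how reads common to both were counted is not given in the sources used here.

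Myh11 encodes the myosin heavy chain that defines differentiated smooth muscle. Its levels were 65.9, 55.9, 69.4, 55.0 and 69.3 CPM in S1Pless hearts, against 90.8, 73.0, 78.4, 57.6 and 80.1 CPM in controls. Only control replicate 4 lay within the S1Pless range, and the other 4 controls lay above all 5 S1Pless hearts. Over all hearts Myh11 averaged 63.1 ± 7.13 CPM in S1Pless hearts and 76.0 ± 12.1 CPM in controls (SD, n = 5 each). The log2 fold change was -0.27 ± 0.12, which gave an unadjusted p of 0.0412, and an adjusted p of 0.229 in edgeR's quasi-likelihood test. It was the 1 contractile gene with an unadjusted p below 0.05, and 6.82% of all tested genes were lower at that level.

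Myl9, the regulatory light chain, had 30.0, 26.9, 23, 18.1 and 29.1 CPM in S1Pless hearts, against 42.9, 25.9, 37.7, 20 and 30.8 CPM in controls. S1Pless replicate 4 was the lowest heart and control replicate 4 the next, and 3 controls lay above every S1Pless heart. S1Pless over control came to -0.30 ± 0.19 on the log2 scale (edgeR adjusted p = 0.399). Mylk, the kinase of that light chain, had 52.2, 44.7, 53.0, 43.8 and 56.5 CPM in S1Pless hearts, against 62.2, 51.7, 45.2, 39.9 and 51.0 CPM in controls. The range of the controls enclosed that of the S1Pless hearts, and the log2 fold change was 0.00 ± 0.12 (edgeR adjusted p = 0.995). Its 95% interval ran from 0.842-fold to 1.19-fold.

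**Figure D1:**
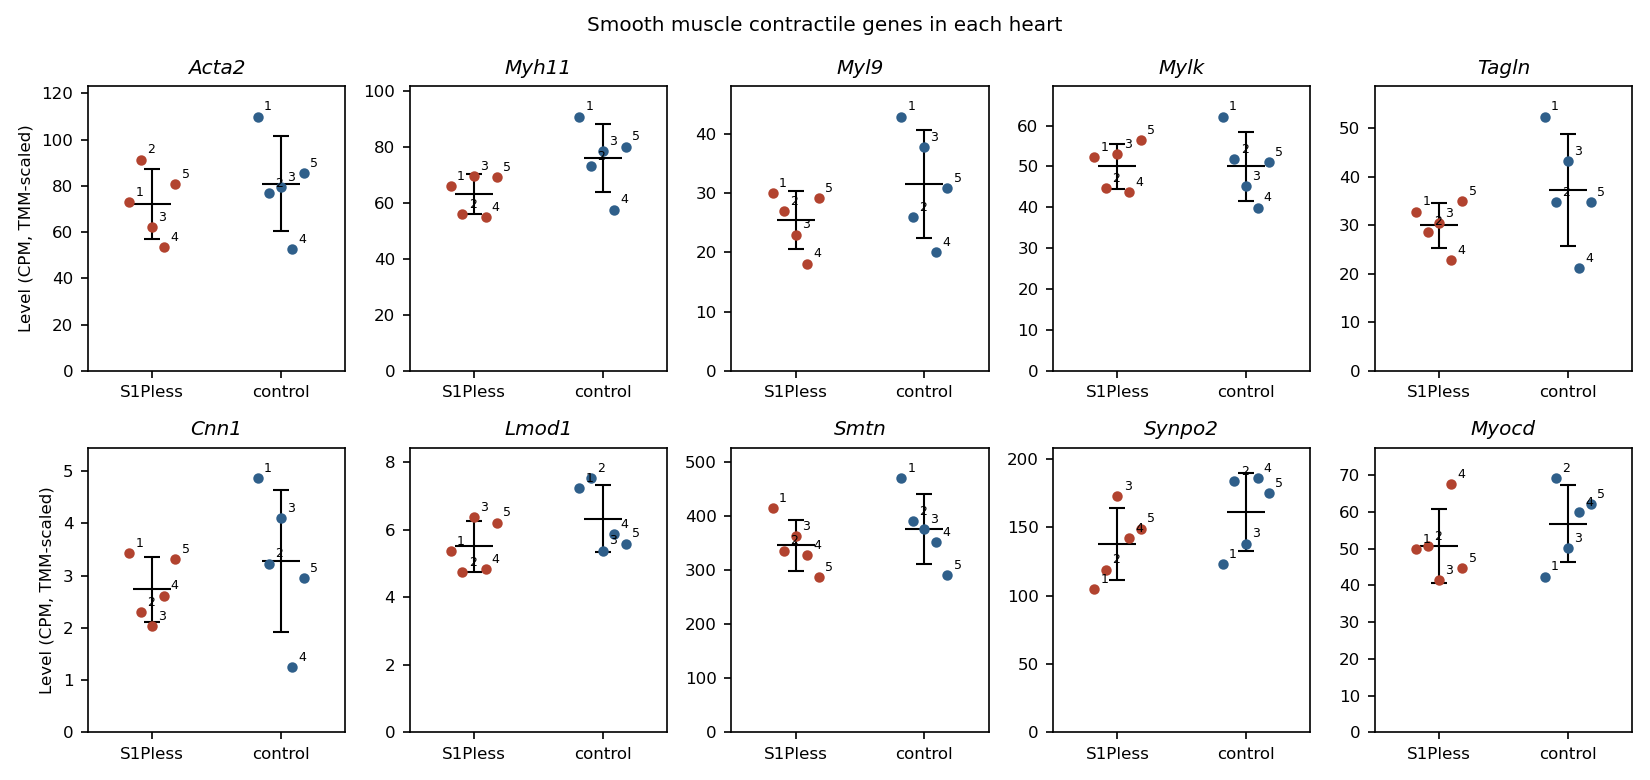
Level of each contractile gene in CPM (vertical axis, linear from 0) in S1Pless and control hearts. Points are hearts numbered by replicate, bars are the mean and SD of 5 hearts; control replicate 1 is the highest heart in 7 panels and control replicate 4 the lowest in 4.

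Of the genes whose products bind the thin filament, Tagln, which encodes the actin-binding protein SM22-alpha, had 32.8, 28.7, 30.5, 22.8 and 35.0 CPM in S1Pless hearts, against 52.4, 34.7, 43.2, 21.1 and 34.8 CPM in controls. S1Pless replicate 5 reached just above control replicates 2 and 5, and control replicate 4 lay below every S1Pless heart. The log2 fold change was -0.31 ± 0.19 (edgeR adjusted p = 0.397). In GENCODE M21 an exon of Pcsk7 overlaps Tagln on the opposite strand. Pcsk7 averaged 26.6 CPM in S1Pless hearts and 25.3 CPM in controls, and the strand setting of the counting is not given in the sources used here, so reads of the pair cannot be told apart.

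Cnn1, which encodes calponin 1, an inhibitor of actomyosin, was the least precise of the group, with 23 to 77 reads per library. It had 3.43, 2.30, 2.03, 2.62 and 3.32 CPM in S1Pless hearts, against 4.87, 3.23, 4.10, 1.25 and 2.96 CPM in controls. The controls differed among themselves 3.89-fold and the S1Pless hearts 1.69-fold. Its log2 fold change of -0.25 ± 0.28 (edgeR adjusted p = 0.668) had an interval from 0.552-fold to 1.29-fold.

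Lmod1 encodes leiomodin 1, which starts actin filaments in smooth muscle. It had 5.37, 4.75, 6.38, 4.84 and 6.21 CPM in S1Pless hearts, against 7.24, 7.53, 5.38, 5.88 and 5.59 CPM in controls. Control replicates 1 and 2 were the highest hearts, while the other 3 controls fell within the S1Pless range. Fitted over all hearts, Lmod1 had a log2 fold change of -0.20 ± 0.14 (edgeR adjusted p = 0.466).

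Smtn, which encodes the actin-binding protein smoothelin, had 415, 336, 363, 328 and 287 CPM in S1Pless hearts, against 470, 391, 375, 352 and 290 CPM in controls. The lowest heart of each group was its replicate 5, and the 2 lowest values nearly coincided. The fit gave Smtn a log2 fold change of -0.12 ± 0.13 (edgeR adjusted p = 0.663).

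Synpo2, whose product myopodin binds actin and alpha-actinin at dense bodies and at the Z-disc of striated muscle, had 105, 119, 173, 142 and 149 CPM in S1Pless hearts, against 123, 184, 138, 186 and 175 CPM in controls. Control replicate 4 was the highest heart and control replicate 1 the lowest control, the reverse of their places in Acta2, Tagln and Cnn1. Synpo2 had a fitted log2 fold change of -0.23 ± 0.15 (edgeR adjusted p = 0.432).

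Myocd, the coactivator that turns on the smooth muscle programme and is also active in heart muscle, had 49.8, 50.6, 41.4, 67.5 and 44.7 CPM in S1Pless hearts, against 42.4, 69.2, 50.2, 60.0 and 62.2 CPM in controls. Its lowest control was again replicate 1. S1Pless replicate 4, which was the lowest heart in Myh11 and Myl9, was the highest S1Pless heart in Myocd. For Myocd the log2 fold change was -0.16 ± 0.15 (edgeR adjusted p = 0.578).

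Without control replicate 4 all 10 log2 fold changes were below 0 and their median was -0.255, against -0.01 for all genes tested in that fit. No contractile gene was called in edgeR, where 0.0687% of 13107 genes were called lower and 0.931% higher. Tagln had a log2 fold change of -0.46 ± 0.15 in that fit (adjusted p = 0.142), Cnn1 -0.46 ± 0.21 (adjusted p = 0.296), Myl9 -0.43 ± 0.17 (adjusted p = 0.22) and Myh11 -0.35 ± 0.11 (adjusted p = 0.121), all by edgeR's quasi-likelihood test. Myh11 was the single one of the 10 genes in which all 5 S1Pless hearts lay below the 4 remaining controls, a pattern seen in 2.32% of the 12992 genes. DESeq2 run without that heart called Myh11 lower (adjusted p = 0.0248), and it called 1.09% of genes lower. Synpo2, at -0.17 ± 0.16, and Myocd, at -0.14 ± 0.16, lay nearer 0 without control replicate 4. Since the heart was singled out for its low values of these same genes, the fit without it describes that heart's weight and is no independent test.

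**Figure D2:**
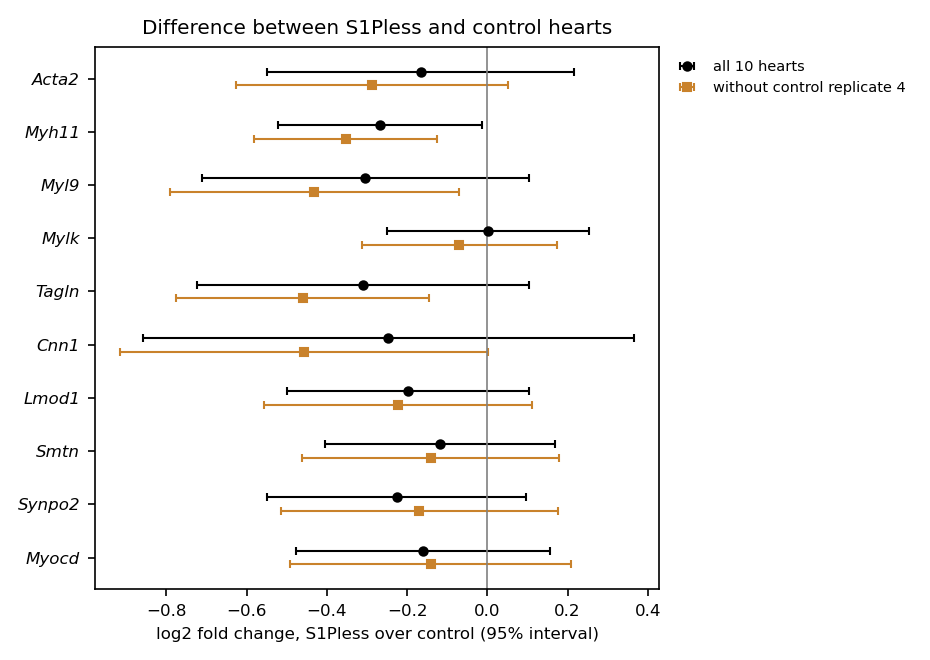
Fitted log2 fold change of S1Pless over control hearts (horizontal axis) for each contractile gene, with 95% intervals, over all 10 hearts (circles) and without control replicate 4 (squares). With all hearts and TMM factors 9 of 10 estimates lie below 0 (8 with library totals alone) and only the Myh11 interval, which is not adjusted for the number of genes, leaves out 0.

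The spread between controls was wide and ordered alike across most of these genes. Control replicate 4 was the lowest control in 6 of 10 genes (Acta2, Myh11, Myl9, Mylk, Tagln and Cnn1) and the lowest of all 10 hearts in 4. Among all tested genes it was the lowest control in 15.8% and the lowest heart in 8.84%. Since control replicate 4 was singled out for its low values of these same genes, these counts describe that heart and are no independent result. Control replicate 1 was the highest heart in 7 of 10 genes (those 6 and Smtn), against 12.4% of all tested genes. It was also the heart with the lowest TMM factor, 0.884, and the largest mitochondrial share, 33.4%. Their part in its high levels was not tested. Synpo2 and Myocd stood apart, with control replicate 1 as the lowest control in both. Over the 10 hearts, the deviation of Tagln from its group mean had a Pearson r of 0.941 with the mean deviation of the other 9 genes, Myh11 0.887 and Mylk 0.87, while Lmod1 had 0.407, Smtn 0.273, Synpo2 -0.592 and Myocd -0.632, given as a description over 10 hearts, in each of which all the genes share a library. Acta2 had 0.733, Myl9 0.781 and Cnn1 0.819. Without control replicate 4 the value was 0.845 for Tagln, 0.839 for Mylk, 0.737 for Myh11, 0.59 for Myl9, 0.506 for Cnn1, 0.5 for Lmod1, 0.448 for Acta2, 0.301 for Smtn, -0.583 for Synpo2 and -0.827 for Myocd. Among S1Pless hearts replicate 4 was among the 3 lowest of all 10 hearts in 7 genes. The coefficient of variation was larger among controls than among S1Pless hearts in 8 of the 10 genes, as it was in 59.8% of all tested genes, and Cnn1 had the largest, 22.5% in S1Pless hearts and 41.5% in controls. Without control replicate 4 it was larger among controls in 7 of the 10.

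Deviations from the group mean were used to find genes with the most similar pattern over the 10 hearts, among 11984 named genes of at least 1 CPM outside the 10. The measure was Pearson's r with the mean deviation of the 10 contractile genes, given as a description of genes picked for a high value. Csrp2, which encodes a LIM protein of smooth muscle, came first with r of 0.968 over 10 hearts and 0.919 over the 9 without control replicate 4. Next came Hpcal1, a calcium-binding protein gene (0.937), Dstn, which encodes the actin-severing protein destrin (0.934), Tox2 (0.917), Gadd45g (0.916), Rad51b (0.912), Nepn (0.912), Sla (0.911), Carhsp1 (0.906) and Tmem18 (0.904). Control replicate 4 was the lowest of all hearts in 9 of these 10 genes. Without it r ran from 0.68 for Tmem18 to 0.919 for Csrp2, so part of the likeness rests on that heart. Between the groups Csrp2 had a log2 fold change of -0.17 ± 0.17 (edgeR adjusted p = 0.615) and Dstn of -0.11 ± 0.10 (adjusted p = 0.59). Tox2 rose in S1Pless hearts, with a log2 fold change of 0.94 ± 0.22 (adjusted p = 0.0323). In edgeR with TMM factors that call ended in 5 of the 10 fits that left out a heart, where the adjusted p reached 0.0873. The hearts were S1Pless replicate 1 or 5 and control replicate 3, 4 or 5. Without control replicate 4 DESeq2 kept the Tox2 call (adjusted p = 0.00831), as did edgeR with library totals alone (adjusted p = 0.0188). The call also ended with hearts of neighbouring title numbers as a block (edgeR adjusted p = 0.188). Control replicates 3 and 4 share a block without any S1Pless heart, so the block fit draws no group difference from them. The call ended as well when the leading digits of the title numbers entered as a covariate (edgeR adjusted p = 0.0522).

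**Figure D3:**
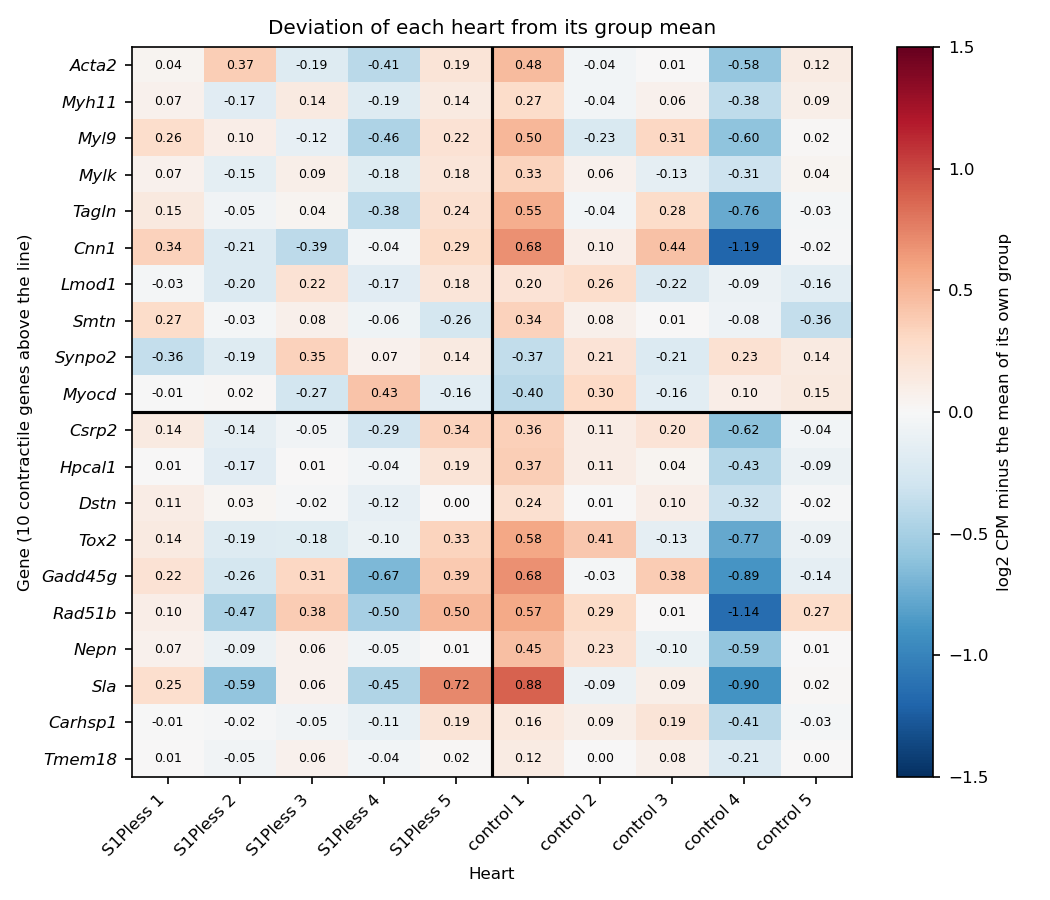
Log2 CPM of each heart minus the mean of its own group (colour, printed in each cell) for the 10 contractile genes (above the line) and the 10 genes most like their mean (below). Control replicate 4 is blue and control replicate 1 red in most rows, while Synpo2 and Myocd show the reverse.

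Levels of the 10 genes can be set against each other only per length, as CPM per kilobase of GENCODE M21 exons. On that scale Smtn was highest, with 79.0 ± 10.8 in S1Pless hearts and 85.7 ± 14.9 in controls, followed by Acta2 with 32.9 ± 6.82 in S1Pless hearts and 36.9 ± 9.40 in controls (SD, n = 5 each). Myl9 followed with 21.9 in S1Pless hearts and 27.1 in controls, then Tagln with 15.1 in S1Pless hearts and 18.7 in controls, and Synpo2 with 10.5 in S1Pless hearts and 12.3 in controls. Myh11 had 8.31 in S1Pless hearts and 10.0 in controls, and Myocd 7.91 in S1Pless hearts and 8.84 in controls. Mylk had 4.44 in both groups. Lmod1, with 1.40 in S1Pless hearts and 1.60 in controls, and Cnn1, with 1.00 in S1Pless hearts and 1.20 in controls, were lowest. The order of neighbours held in all 10 hearts for Smtn over Acta2, Acta2 over Myl9, Myl9 over Tagln, Myocd over Mylk and Mylk over Lmod1. It held in 8 of 10 hearts for Synpo2 over Myh11 and in 6 of 10 for Myh11 over Myocd. The ranges of neighbours overlapped within each group for all pairs but Smtn over Acta2, Myocd over Mylk and Mylk over Lmod1.

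The other genes of the smooth muscle programme showed few calls. With library totals alone 1 of 24 further filament and adhesion genes was called higher, and the median log2 fold change was 0.165. In that fit 1420 of all 12992 genes were called higher, and the median of all genes was 0.122. With TMM factors none of the 24 was called and their median was 0.03. Those with the smallest p-values were Synm, which encodes the intermediate filament protein synemin, with 15.8 ± 1.79 CPM in S1Pless hearts and 19.6 ± 2.33 CPM in controls (edgeR adjusted p = 0.123), and Itga1, the collagen-binding integrin alpha-1, with 143 ± 22 CPM in S1Pless hearts and 109 ± 23.4 CPM in controls (adjusted p = 0.17). In the list of SRF and myocardin regulators none of 11 tested genes was called, with a median of -0.09. Cited2, a transcriptional coregulator, had 41.7 ± 4.43 CPM in S1Pless hearts and 53.5 ± 6.72 CPM in controls, with no overlap (adjusted p = 0.0686), and all S1Pless hearts below all controls was a pattern of 1.82% of tested genes. Foxo4, a forkhead factor that can repress myocardin, had 61.5 ± 6.09 CPM in S1Pless hearts and 73.7 ± 5.61 CPM in controls (adjusted p = 0.123).

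Among genes that control myosin phosphorylation through RhoA, the myosin kinases and the myosin phosphatase, none of 20 tested was called, with a median of -0.04. With library totals alone 1 of the 20 was called higher and the median was 0.0966. In that fit 1420 of all 12992 genes were called higher, and the median of all genes was 0.122. Mylk4, a kinase of the myosin light chain kinase family, had 143 ± 21.4 CPM in S1Pless hearts and 198 ± 48.9 CPM in controls (edgeR adjusted p = 0.119). Arhgef1, the RhoA exchange factor that couples to the G-protein alpha-13 subunit, had 89.9 ± 4.78 CPM in S1Pless hearts and 76.3 ± 8.27 CPM in controls (adjusted p = 0.157).

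Of 11 tested receptors that mediate constriction 1 was called, and it was lower, as were 0.316% of all tested genes. Log2 fold changes were below 0 for 5 of the 11, and their median was 0.05. With library totals alone 1 was called lower and 1 higher, where 13 of all 12992 genes were called lower and 1420 higher. Adra1b, the alpha-1B adrenergic receptor gene, which heart muscle cells also express, fell to 15.8, 14.1, 24.5, 16.4 and 18.3 CPM in S1Pless hearts, against 22.9, 28.2, 29.3, 30.1 and 27.3 CPM in controls. S1Pless replicate 3 was the one heart of its group above the lowest control, replicate 1. The log2 fold change was -0.63 ± 0.13 (edgeR adjusted p = 0.0228). In edgeR with TMM factors the call ended when S1Pless replicate 1 or control replicate 2, 3 or 4 was left out, with adjusted p-values of at most 0.0661. Without control replicate 4 DESeq2 kept the Adra1b call (adjusted p = 0.00717), and library totals alone did not (edgeR adjusted p = 0.106). Over all alternatives its adjusted p ran from 0.000753 to 0.106. Ednrb, an endothelin receptor gene, had the next smallest p-value of the list and lay higher in S1Pless hearts, though not called. Its log2 fold change was 0.33 ± 0.11 (edgeR adjusted p = 0.105). The S1P receptor gene S1pr3 had a log2 fold change of 0.14 ± 0.11 (adjusted p = 0.513).

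Of the 10 genes listed for the synthetic, less contractile state of smooth muscle 3 were called higher in S1Pless hearts, against 3.4% of all tested genes. The median log2 fold change of the 10 was 0.45. Without control replicate 4 edgeR with TMM factors called 0.931% of all genes higher and none of these 10. Vim, which encodes the intermediate filament vimentin of mesenchymal and blood cells, rose to 283 ± 54.7 CPM in S1Pless hearts, against 179 ± 27.7 CPM in controls (edgeR adjusted p = 0.0255). Lgals3, which encodes galectin 3 and is also a macrophage gene, rose to 8.69 ± 4.37 CPM in S1Pless hearts, against 3.82 ± 0.802 CPM in controls (adjusted p = 0.0303). Vcam1, an adhesion molecule of activated vessel cells, rose to 35.9 ± 7.71 CPM in S1Pless hearts, against 23.2 ± 4.42 CPM in controls (adjusted p = 0.0415). In edgeR with TMM factors none of the 3 was called without control replicate 2, 3, 4 or 5. Nor was any called with hearts of neighbouring title numbers as a block (adjusted p up to 0.214, Lgals3 in the block). Without control replicate 4, however, DESeq2 called all 3 (adjusted p = 0.0081 for Vim, 0.00902 for Lgals3 and 0.023 for Vcam1). So did edgeR with library totals alone (adjusted p = 0.0152, 0.0297 and 0.0194). Those 2 fits called 494 and 874 genes higher. Lgals3 also lost its call with that leading-digit covariate (adjusted p = 0.0516). Vim also lost its call without S1Pless replicate 1 or 5, and Vcam1 without S1Pless replicate 1, 2 or 5 (adjusted p up to 0.107). S1Pless replicate 5 was the highest heart in all 3 genes. In edgeR with TMM factors 4 of 6 macrophage markers were called higher, 1 of them without control replicate 4. None was called with the block (adjusted p from 0.0944 for Aif1 to 0.306 for Fcgr3). Without control replicate 4 DESeq2 called all 4 (adjusted p from 0.00057 for Aif1 to 0.0224 for Fcgr3). So did edgeR with library totals alone (adjusted p up to 0.0315, Fcgr3). The 6 markers summed to 115 to 275 CPM in S1Pless hearts and 73.2 to 93.9 CPM in controls. The part of macrophages in the rise of Vim, Lgals3 and Vcam1 was not tested.

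Markers of neighbouring cell types are set beside the contractile genes. None of 10 pericyte markers was called, and their summed level was 1660 to 1910 CPM in S1Pless hearts and 1630 to 1810 CPM in controls, with 1680 CPM in control replicate 4. Rgs5 and Abcc9 make up most of that sum, and control replicate 4 lay below the other 4 controls in Rgs5 (850 CPM, against 864 to 1120 CPM), Higd1b (5.39 CPM, against 6.83 to 10.3 CPM) and Mcam (47.1 CPM, against 52.4 to 67.6 CPM). That heart lay above the other 4 controls in Pdgfrb (103 CPM, against 90.3 to 102 CPM). In the remaining pericyte markers it lay within their range, as in Abcc9 (484 CPM, against 334 to 498 CPM). The part of the pericyte signal in the low contractile score of that heart was not tested. The 10 endothelial markers, none of them called, summed to 1980 to 2430 CPM in S1Pless hearts and 1890 to 2400 CPM in controls. The 10 fibroblast markers, again with no call, summed to 2210 to 2570 CPM in S1Pless hearts and 1710 to 2490 CPM in controls. With library totals alone 2 endothelial and 3 fibroblast markers were called higher, where 1420 of all 12992 genes were. Of 5 tested myofibroblast markers Meox1, a homeobox factor of activated fibroblasts, was called higher, with a log2 fold change of 0.92 ± 0.16 (edgeR adjusted p = 0.0116, and 0.0782 with the block of neighbouring title numbers). Meox1 stayed called in all 10 edgeR fits that left out a heart (adjusted p at most 0.0384). The 5 myofibroblast markers summed to 106 to 224 CPM in S1Pless hearts and 81.6 to 144 CPM in controls. The 5 large artery wall genes, with Eln among them, had no call and summed to 84.5 to 117 CPM in S1Pless hearts and 83.6 to 101 CPM in controls.

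The cardiomyocyte markers had no call among 10, yet all 10 had log2 fold changes below 0, with a median of -0.19 (9 of 10 and -0.05 with library totals alone). Their summed level was 61200 to 70900 CPM in S1Pless hearts and 75200 to 80400 CPM in controls, without overlap. With library totals alone it was 66400 to 73200 CPM in S1Pless hearts and 68500 to 76800 CPM in controls, and the groups overlapped. The part of the heart muscle signal in the values of Myocd, Synpo2 and the other contractile genes was not tested. The atrial marker Nppa varied widely in both groups, with 186 ± 109 CPM in S1Pless hearts and 152 ± 103 CPM in controls, and 3 of the 5 atrial markers were not tested. Red cell markers summed to 73.9 to 172 CPM in S1Pless hearts and 32.2 to 143 CPM in controls, with no call among 5. The 1 tested fat cell marker had no call.

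**Figure D4:**
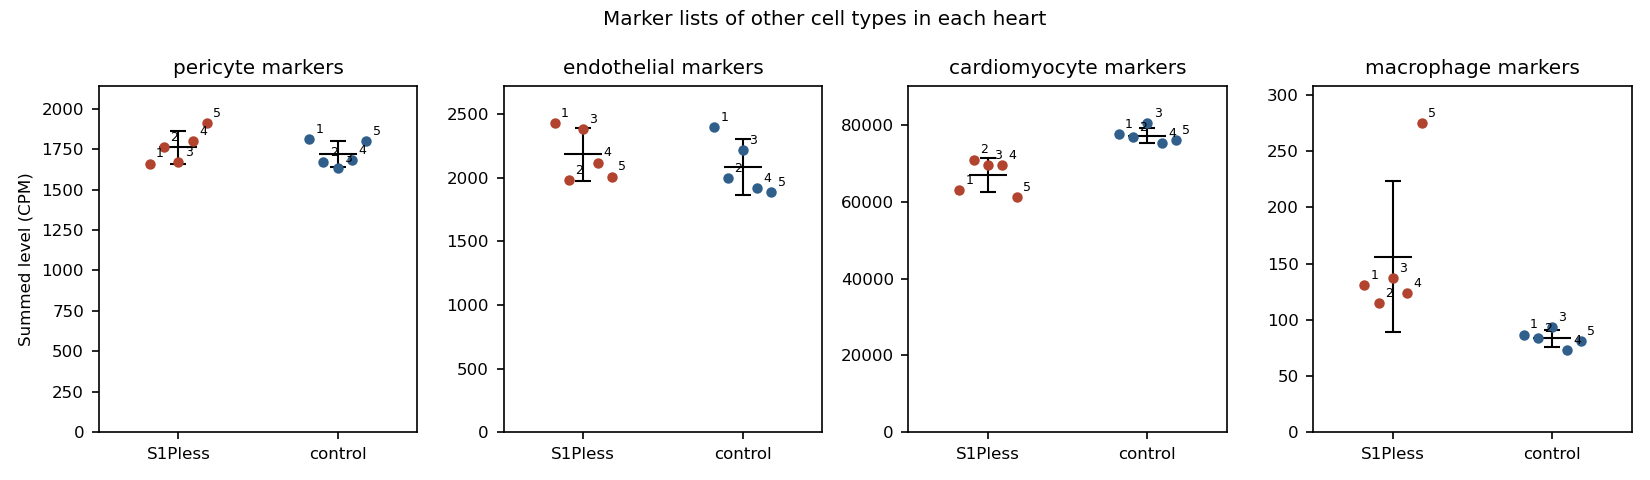
Summed CPM of 4 marker lists (vertical axes, linear from 0) in S1Pless and control hearts. Points are hearts numbered by replicate and bars are the mean and SD of 5 hearts; with TMM factors the cardiomyocyte and macrophage sums do not overlap between groups, though the cardiomyocyte sums do with library totals alone, and the pericyte and endothelial sums overlap.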

How the data were processed

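RNA of 10 mouse hearts was sequenced from stranded mRNA libraries, per the labels' protocols. The authors deposited unnormalized read counts for Ensembl gene IDs. STAR 2.7.8a, featureCounts 2.0.1 and the GRCm39 build come from the submitters' processing notes; annotation release, strand setting and treatment of multi-mapping reads: not given in the sources used here. Symbols and exon lengths came from GENCODE M21 and promoters from RefSeq, both on the older GRCm38 build. Groups follow the genotype label; replicates are numbered in accession order and pair nothing. The labels list every heart as its own sample, so p-values measure the spread between these hearts. Library totals and the reads behind low genes are given with the results.

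The comparison used edgeR 4.0.16 (R 4.3.3): filterByExpr (minimum count 10), TMM factors, robust glmQLFit and glmQLFTest, two-sided, Benjamini-Hochberg adjustment over 12992 genes, threshold 0.05. Standard errors are the log2 fold change over the square root of F. Scores use log2 CPM with a prior count of 2. The test was tried on simulated data. Alternatives used DESeq2 1.42.0, limma 3.58.1, other factors, filters and covariates, and left-out hearts.

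Members and gene lists were chosen with earlier results of these data known. Genes named are the 10 members, from each pathway list up to 4 called genes or the 2 with the smallest p-values, and the 10 genes most like the members. S1pr3, Ednrb, Meox1, Nppa, Actc1 and Pcsk7 were named beside them after their values were seen.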

Additional observations from a re-analysis of the deposited data

How the results depend on the processing

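No contractile gene was called higher in any alternative, and the single one called lower (1 gene) was Myh11 in DESeq2 without control replicate 4, an alternative chosen after seeing the data. The median log2 fold change of the 10 genes stayed below 0 in all alternatives, from -0.313 to -0.0764, and ran from -0.258 to -0.165 when a heart was left out. With library totals alone the median of all genes shifted to 0.122, and the median of the 10 genes relative to it was -0.198, as with TMM factors. Directions turned in 3 genes. Smtn was at 0.024 with library totals alone and 0.0148 when control replicate 4 was also left out, and Cnn1 at 0.0914 with limma-voom. Mylk, at 0.00 in the fit reported, was at -0.0137 with RLE factors and with DESeq2, -0.0136 without haemoglobin and mitochondrial genes, -0.000888 with the leading digits of the title numbers as a covariate, -0.131 with the block of neighbouring title numbers, -0.132 with that block without control replicate 4, -0.0881 in DESeq2 without that heart, and -0.0695 to 0.078 over the fits with a heart left out. The cause was not tested. Over all genes, 442 calls higher and 41 lower became 1420 and 13 with library totals alone, 764 and 264 with DESeq2, and 80 and 8 with the block. Leaving out a heart gave 118 to 504 higher and 8 to 85 lower. Without control replicate 4 there were 42 and 7 with the block, 874 and 5 with library totals and 494 and 142 with DESeq2. No paired analysis was possible because the labels give no replicate numbers that the groups share. The block of neighbouring title numbers, whose meaning is not stated, is no substitute for pairing. Control replicates 3 and 4 fell in a block without any S1Pless heart, so they add nothing to the group difference in that fit. It compares the other controls with the S1Pless hearts of their blocks, so a call lost there also reflects fewer controls. The 95% intervals ran from 0.842-fold to 1.19-fold for Mylk and from 0.552-fold to 1.29-fold for Cnn1, which had 23 to 77 reads per library. They lie around each estimate, are not adjusted for the number of genes, and are no limit of what would have been called.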
